A study of Mus musculus with 42 samples.

Results

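Polycomb repressive complex 1 (PRC1) was followed through 9 of its subunit genes, Cbx2, Cbx6, Cbx7, Cbx8, Ring1, Rnf2, Bmi1, Pcgf2 and Phc1, during the conversion of mouse embryonic stem cells (ESCs) into anterior definitive endoderm (ADE). The genes were found by the RefSeq accession of their probes, 9 of 21165 genes with a probe on the array, and each is represented by the brightest of its probes over all 42 arrays. Total RNA was measured on Agilent one-colour arrays in 14 groups of 3 independent experiments, and all values below are log2 intensities. All groups came from 1 dual reporter ESC line with GFP at the Gsc locus and RedStar at the Hhex locus, grown in ESC medium with LIF. The untreated groups were ESCs, unsorted cells of day 2 (d2) of differentiation, and cells sorted by the reporters into GSC negative (G-) and GSC positive (G+) cells at d3 and d4, G-, Glow and Ghigh cells at d5, and G+ cells without (G+H-) or with HHEX (G+H+) at d6. The 3 other groups were d6 cultures whose labels name no sort. Control cells received DMSO throughout, ADE_EPZ cells received DMSO as ESCs and 2.5 µM EPZ6438, an inhibitor of the PRC2 methyltransferase EZH2, during differentiation, and ES_EPZ cells received EPZ6438 as ESCs and DMSO during differentiation. Both reporters are knock-in alleles carried by every group, controls included, and all results rest on this 1 line.

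PRC1 is a chromatin complex that represses developmental genes. Its RING subunit, RING1 (RING1A) or RNF2 (RING1B), is the ubiquitin ligase that modifies histone H2A, and a PCGF protein such as BMI1 (PCGF4) or PCGF2 (MEL18) pairs with it. In canonical PRC1 a CBX protein reads the H3K27me3 mark made by PRC2, and a PHC protein polymerises and compacts chromatin. CBX7 is known as the main CBX protein of canonical PRC1 in ESCs, whereas CBX2 and CBX8 are known from differentiated cells. Variant PRC1 complexes hold RYBP or YAF2 in place of a CBX protein.

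The labels were checked against marker genes. The pluripotency gene Pou5f1 had a mean of 13.59 in ESCs and 7.69 in d6 G+H+ cells, and the endoderm gene Sox17 had a mean of 5.02 in ESCs and 12.60 in d6 G+H+ cells. Of the 4 pluripotency markers on the list, 4 were lower in d6 G+H+ cells than in ESCs, and 4 of 4 definitive endoderm markers were higher. The 3 visceral endoderm markers were also higher there, with a summed level of the list from 9.4 to 10.5, against 7.33 to 7.93 in ESCs. The summed level of the neural list lay between 8.43 and 10.24 over all groups, and that of the blood and vessel list between 10.54 and 11.56. The brightest genes, Zic1 and Kdr, weigh most in these sums. Of the dimmer genes, Sox1 went from 6.64 in ESCs to 6.14 in d6 G+H+ cells and Pax6 from 6.68 to 4.99. Tal1 went from 5.86 to 4.76 and Pecam1 from 7.31 to 6.43. Between 24504 and 40428 probes per array were above background, and 3 arrays per group limit the precision. RNA came from bulk cells, so that fewer cells of a type and less RNA per cell cannot be told apart.

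The subunit genes did not move as a unit. Over the 11 untreated populations, 6 of the 9 genes differed by limma's F test at an adjusted p of at most 0.01, against 47.1% of all genes. These were the CBX genes Cbx2, Cbx6 and Cbx8, together with Ring1, Bmi1 and Phc1. The other 3 were Rnf2 (adjusted p = 0.178), Cbx7 (adjusted p = 0.181) and Pcgf2 (adjusted p = 0.0837). The 14 group means of Phc1 spanned 3.06, from 12 at d2 to 8.94 in ES_EPZ cells. The span was 2.55 for Cbx8, 2.51 for Bmi1, 2.15 for Cbx2, 1.70 for Cbx6, 1.19 for Pcgf2, 1.07 for Cbx7, 1.03 for Ring1 and 0.48 for Rnf2. With 14 group means in order for each gene, neighbours in the order mostly overlapped: of 13 neighbouring pairs, the arrays were separate in 3 pairs for Bmi1, in 2 for Cbx2, in 1 each for Cbx6, Cbx8, Rnf2 and Phc1, and in 0 for Cbx7, Ring1 and Pcgf2.

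**Figure D1:**
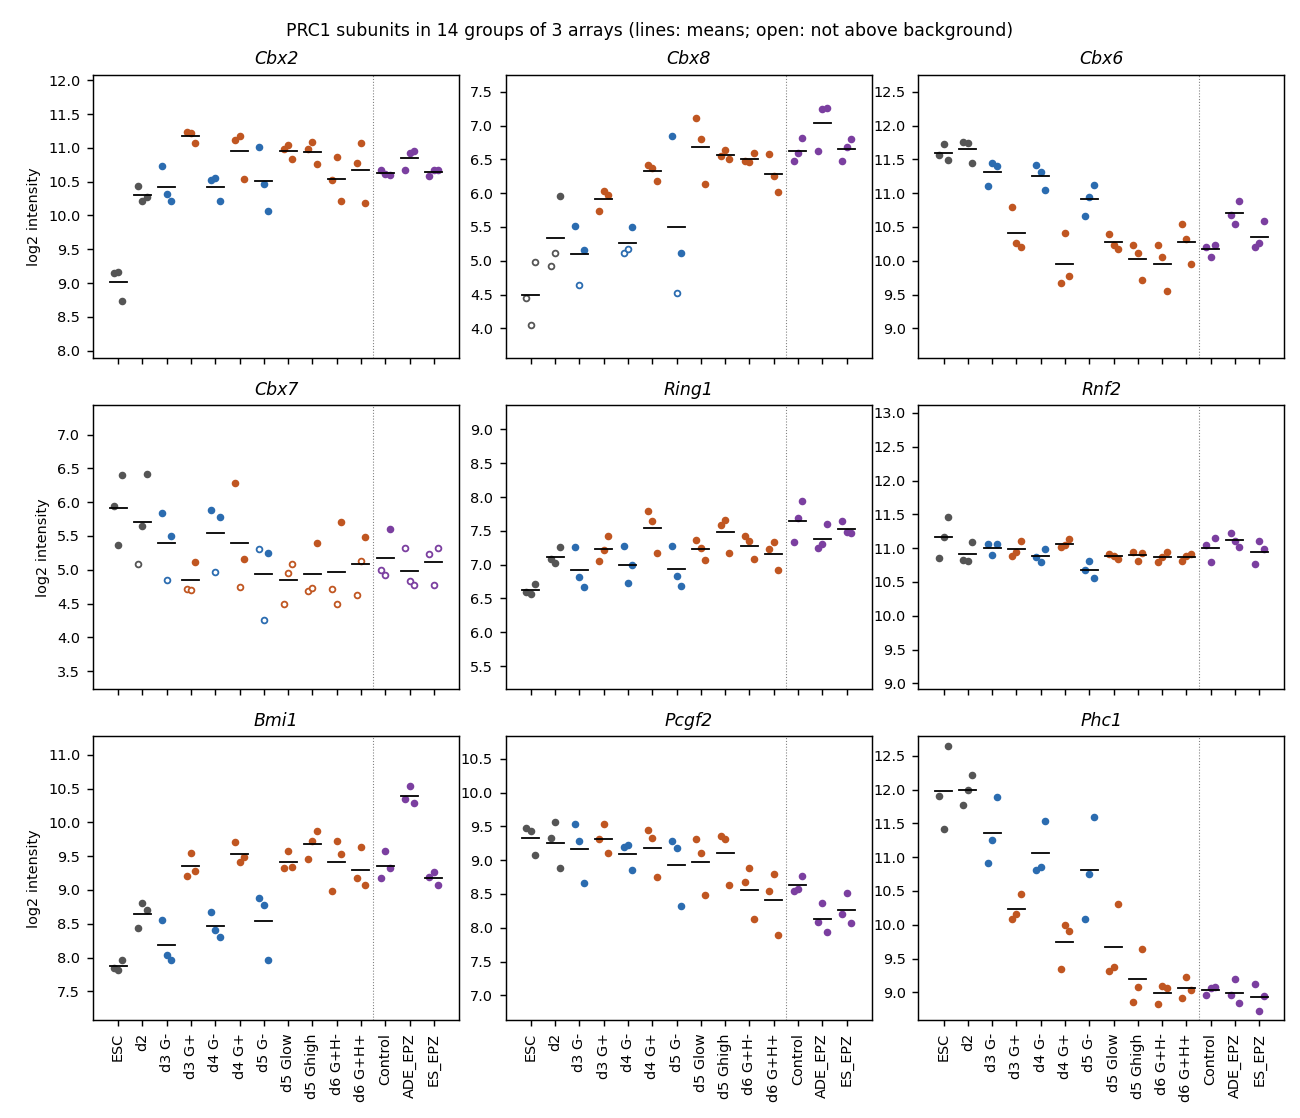
Log2 intensity of the 9 PRC1 subunit genes on each array, by group along the horizontal axis, with 3 arrays per group and a line at each mean; every panel spans the same range on the log2 scale, and open points are not well above background. Grey marks ESC and d2, blue G-, orange G+ and purple the EPZ6438 series. Cbx2, Cbx8 and Bmi1 lie lowest in ESCs, Phc1 and Cbx6 lie highest in ESCs and d2 cells, Rnf2 varies least, and the ADE_EPZ arrays of Bmi1 lie above all others.

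Cbx8 and Bmi1 followed 1 course, and Cbx6 and Phc1 the opposite one. Over the 14 group means, Pearson's r was 0.94 for Cbx8 with Bmi1 and 0.90 for Cbx6 with Phc1, and -0.94 for Cbx8 with Phc1, as a description of points that share the ESC, sorted and EPZ6438 arrays. The other cross pairs had r of -0.75 (Cbx6 with Bmi1), -0.83 (Cbx6 with Cbx8) and -0.84 (Bmi1 with Phc1). Ring1 went with the first course as well, at 0.87 with Cbx8 and 0.80 with Bmi1. So did Cbx2, at 0.74 with Cbx8 and 0.75 with Bmi1. Cbx7, which was near background, went with the opposite course, at 0.74 with Phc1 and 0.72 with Cbx6. Pcgf2 had r of 0.75 with Phc1 but 0.41 with Cbx6. The promoters of Cbx8, Bmi1, Cbx6 and Phc1 are shown because they made up the pairs named first. They are the 250 bases before the transcription start from the RefSeq promoter table of build GRCm38.p6, 5′ to 3′ on the strand of the gene, with each CG dinucleotide (CpG) in capitals, since CpG-rich promoters are the kind that Polycomb complexes are known to occupy. That of Cbx8 lies at chr11:119040914-119041163 on the minus strand, that of Bmi1 at chr2:18676768-18677017 on the plus strand, that of Cbx6 at chr15:79834334-79834583 on the minus strand and that of Phc1 at chr6:122340228-122340477 on the minus strand.
Cbx8: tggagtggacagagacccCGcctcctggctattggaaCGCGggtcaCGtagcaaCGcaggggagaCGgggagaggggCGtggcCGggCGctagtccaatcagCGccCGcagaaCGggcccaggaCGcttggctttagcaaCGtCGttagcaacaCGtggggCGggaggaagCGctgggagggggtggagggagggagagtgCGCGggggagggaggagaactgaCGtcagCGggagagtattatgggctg
Bmi1: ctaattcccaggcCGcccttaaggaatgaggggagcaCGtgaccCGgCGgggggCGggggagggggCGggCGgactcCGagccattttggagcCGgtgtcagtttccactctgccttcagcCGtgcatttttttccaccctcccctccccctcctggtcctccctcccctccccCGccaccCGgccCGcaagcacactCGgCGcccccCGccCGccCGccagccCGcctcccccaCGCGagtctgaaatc
Cbx6: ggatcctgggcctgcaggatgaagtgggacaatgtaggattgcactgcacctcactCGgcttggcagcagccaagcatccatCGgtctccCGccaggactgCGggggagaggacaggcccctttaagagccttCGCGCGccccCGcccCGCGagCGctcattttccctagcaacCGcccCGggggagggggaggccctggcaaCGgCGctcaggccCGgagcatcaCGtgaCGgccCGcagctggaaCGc
Phc1: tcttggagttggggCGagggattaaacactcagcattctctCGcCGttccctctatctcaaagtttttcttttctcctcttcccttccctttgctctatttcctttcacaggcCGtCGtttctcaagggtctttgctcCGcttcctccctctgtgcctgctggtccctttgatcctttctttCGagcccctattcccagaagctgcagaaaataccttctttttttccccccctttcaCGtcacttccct
CpG was counted in 22 places for Cbx8, 21 for Bmi1, 20 for Cbx6 and 8 for Phc1. Of the 32851 promoters in the table, 14.8% held at least as many as Cbx8, 16.3% as Bmi1, 17.9% as Cbx6 and 43% as Phc1, and the median was 6. Of the other members, Ring1 had 30, Cbx7 23, Rnf2 20 and Pcgf2 5. A promoter of Cbx2 was not used here.

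The CBX genes were compared with ESCs first. Cbx2, a CBX reader with a role in compacting chromatin, had values of 9.15, 9.17 and 8.74 in ESCs and of 10.44, 10.21 and 10.27 at d2. All d2 values lay above all ESC values. The mean was higher at d2 by 1.28 (SE 0.21, limma adjusted p = 6.95e-05). In d3 G+ cells the values were 11.23, 11.22 and 11.07, the highest mean of any group at 11.17 ± 0.09 (SD, n = 3). The difference from ESCs was 2.15 (SE 0.21, adjusted p = 7.9e-10) there, and it was 1.66 (SE 0.21, adjusted p = 7.37e-08) in d6 G+H+ cells, where the values were 10.78, 11.07 and 10.19. Cbx2 was above ESCs in all 10 untreated populations, by 1.28 to 2.15, and no array of them overlapped with the ESC arrays. ESCs lay lowest of the 14 groups, with a gap of 1.28 to the next, which was d2.

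Cbx8, another reader of H3K27me3, was dim. Its probe was well above background on 0 of 3 ESC arrays, 1 of 3 d2 arrays, 2 of 3 d3 G- arrays, 1 of 3 d4 G- arrays, 2 of 3 d5 G- arrays and every array of the other groups. Intensities in ESCs were 4.45, 4.05 and 4.98. Those below the dimmest probe above background on their array were raised to it before fold increases were taken. These are not strict lower bounds, since Cbx8 was still not above background at 5.12 and 5.18 in d4 G- cells. In d3 G+ cells the values were 5.74, 6.03 and 5.98. Limma's difference from ESCs, on values not raised, was 1.42 there (SE 0.34, adjusted p = 0.00249). By the measure with raised values, Cbx8 was 2.32-fold higher than in ESCs. The same measure gave 3.07-fold in d4 G+, 3.93-fold in d5 Glow and 3.63-fold in d5 Ghigh cells. At d6 it gave 3.5-fold in G+H- and 2.99-fold in G+H+ cells. From d4 G+ on, limma's adjusted p, from values not raised, lay between 7.99e-06 and 1.13e-04. No array of these populations overlapped with the ESC arrays. In d5 G- cells the replicates were far apart, at 6.84, 4.52 and 5.12.

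Cbx6, a CBX protein less well studied than the others, took the opposite course. Its values were 11.56, 11.73 and 11.49 in ESCs, 10.79, 10.26 and 10.20 in d3 G+ cells and 10.55, 10.32 and 9.95 in d6 G+H+ cells. All d3 G+ and d6 G+H+ arrays lay below all ESC arrays. The difference from ESCs was -1.17 (SE 0.20, adjusted p = 2.51e-05) in d3 G+, -1.64 (SE 0.20, adjusted p = 6.22e-08) in d4 G+ and -1.32 (SE 0.20, adjusted p = 1.86e-06) in d6 G+H+ cells. The other 2 probes of the gene were lower as well in d6 G+H+ cells, by -1.24 (adjusted p = 6.11e-07) and by -0.50 (adjusted p = 0.0308). The probe with the smaller difference missed the threshold in d3 G+ cells (-0.28, adjusted p = 0.387).

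Cbx7 was near background throughout. It was above background on 3 of 3 ESC arrays, with values of 5.95, 5.37 and 6.40, and on 17 of 42 arrays in all. In d5 Glow cells Cbx7 was at 4.50, 4.95 and 5.09, above background on 0 of 3 arrays. ESCs were 1.98-fold higher by the measure used for Cbx8. Limma's difference from ESCs, on values not raised, was -1.06 (adjusted p = 0.0482). That call was lost without ESC replicate 1 or 3 or any d5 Glow replicate (adjusted p between 0.0536 and 0.249). In the other 9 untreated populations the adjusted p lay between 0.0511 and 0.975, with differences from -0.19 to -1.06. Single arrays decided some of these: Cbx7 passed without ESC replicate 2 in d3 G+ (-1.33, adjusted p = 0.0237), d5 Ghigh (-1.24, adjusted p = 0.0326) and d6 G+H- cells (-1.20, adjusted p = 0.0346), without d5 Ghigh replicate 3 (-1.20, adjusted p = 0.0426) and without d6 G+H- replicate 3 (-1.30, adjusted p = 0.0178). With the processed signal scaled by its 75th percentile, the difference from ESCs was larger and passed in d3 G+ (-2.36, adjusted p = 0.0275), d6 G+H- (-2.22, adjusted p = 0.0296) and d6 G+H+ cells (-2.06, adjusted p = 0.0429). With slide as a fixed block the d5 Glow call was lost (adjusted p = 0.315). In the same fit Cbx7 passed in d5 Ghigh (-0.97, adjusted p = 0.0176) and d6 G+H- cells (-0.83, adjusted p = 0.0478). Slide as a random block did the same for these populations (adjusted p of 0.102, 0.0249 and 0.0448). With the replicate number as a block, Cbx7 passed in d3 G+, d5 G-, d5 Ghigh, d6 G+H- and d6 G+H+ cells (adjusted p between 0.013 and 0.0487).

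Rnf2 had the smallest span of group means of the 9 genes, and Ring1 differed from ESCs in every GSC positive population. Rnf2, the main ligase of PRC1 in ESCs, was at 10.86, 11.17 and 11.46 in ESCs and at 10.81, 10.89 and 10.91 in d6 G+H+ cells. The ranges overlapped. The difference was -0.29 (SE 0.13, adjusted p = 0.094). Without ESC replicate 1 it was -0.44 and passed (adjusted p = 0.0104), and the same held in d4 G-, d5 Glow, d5 Ghigh and d6 G+H- cells (adjusted p between 0.013 and 0.0374). In d5 G- cells Rnf2 was lower than in ESCs by -0.48 (adjusted p = 0.0081), a call lost without ESC replicate 3 (-0.33, adjusted p = 0.13). Ring1, the second ligase gene, was at 6.6, 6.57 and 6.72 in ESCs and at 7.80, 7.64 and 7.18 in d4 G+ cells, with no overlap. It was higher there by 0.91 (SE 0.19, adjusted p = 3.85e-04), in d5 Ghigh cells by 0.85 (adjusted p = 8.25e-04) and in d6 G+H- cells by 0.65 (adjusted p = 0.00821). The increases in d3 G+ (0.60, adjusted p = 0.0221), d5 Glow (0.60, adjusted p = 0.0208) and d6 G+H+ cells (0.53, adjusted p = 0.0356) were smaller and each was lost without ESC replicate 1 or 2 or either of 2 replicates of the population (adjusted p between 0.0584 and 0.153).

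The PCGF genes diverged. Bmi1 was at 7.85, 7.81 and 7.96 in ESCs, 8.44, 8.81 and 8.70 at d2, 9.21, 9.55 and 9.28 in d3 G+ cells and 9.18, 9.64 and 9.08 in d6 G+H+ cells. Each of these groups lay wholly above ESCs. The difference from ESCs was 0.78 (SE 0.20, adjusted p = 0.0133) at d2, 1.47 (SE 0.20, adjusted p = 9.02e-07) in d3 G+, 1.81 (SE 0.20, adjusted p = 1.24e-08) in d5 Ghigh and 1.42 (SE 0.20, adjusted p = 7.25e-07) in d6 G+H+ cells. The d2 call was lost without ESC replicate 1 or d2 replicate 2 or 3 (adjusted p between 0.0516 and 0.0713). The dimmer probe of the gene gave a difference of 1.57 (adjusted p = 2.92e-07) in d6 G+H+ cells. Pcgf2 was at 9.47, 9.43 and 9.07 in ESCs and at 8.55, 8.79 and 7.90 in d6 G+H+ cells, with no overlap. It was lower by -0.91 (SE 0.27, adjusted p = 0.0116) in d6 G+H+ cells and by -0.76 (adjusted p = 0.0394) in those of d6 G+H-, and its second probe was lower by -0.70 (adjusted p = 0.00421) and by -0.51. The d6 G+H+ call was lost without ESC replicate 1 (adjusted p = 0.0515) or d6 G+H+ replicate 3 (adjusted p = 0.123), and the d6 G+H- call without ESC replicate 1 or 2 or d6 G+H- replicate 1 or 3 (adjusted p between 0.0624 and 0.228).

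Phc1, a polyhomeotic subunit, had the widest span of group means of the 9 genes. Its values were 11.90, 11.41 and 12.64 in ESCs, 11.77, 12 and 12.22 at d2, 10.08, 10.16 and 10.45 in d3 G+ cells and 8.91, 9.22 and 9.04 in d6 G+H+ cells. The d2 arrays lay within the range of ESCs, whereas the d3 G+ and d6 G+H+ arrays lay below every ESC array. The difference from ESCs was -1.76 (SE 0.31, adjusted p = 4.93e-05) in d3 G+, -2.79 (SE 0.31, adjusted p = 1.00e-08) in d5 Ghigh and -2.93 (SE 0.31, adjusted p = 2.18e-09) in d6 G+H+ cells.

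**Figure D2:**
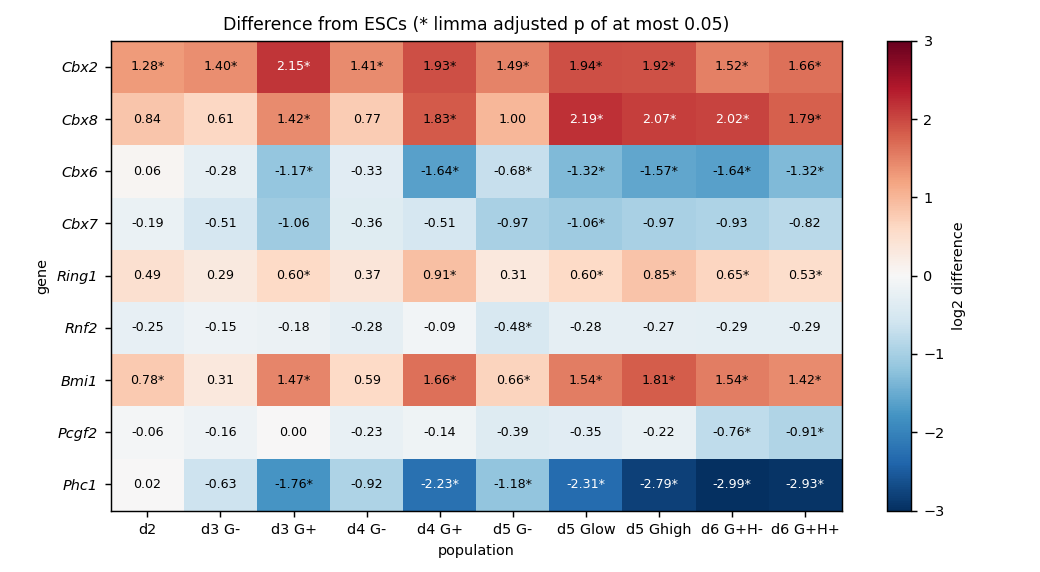
Difference of each PRC1 subunit gene (rows) from ESCs in the 10 untreated populations (columns), as log2 differences of the means of 3 arrays, with a star at a limma adjusted p of at most 0.05; values of Cbx8 rest on ESC arrays that were not above background. Cbx2, Cbx8 and Bmi1 were higher and Phc1 and Cbx6 lower in every GSC positive population, with Phc1 at -2.93 in d6 G+H+ cells.

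Counted by population, the members called at an adjusted p of at most 0.05 against ESCs were 2 of 9 at d2 (background over all genes 10.3%), 1 in d3 G- (14.3%), 6 in d3 G+ (26.4%), 1 in d4 G- (16.2%), 6 in d4 G+ (27.6%), 5 in d5 G- (19.4%), 7 in d5 Glow (28.3%), 6 in d5 Ghigh (29.3%) and, at d6, 7 each in G+H- (35%) and G+H+ cells (37.2%). With the study's rule of an adjusted p of at most 0.01 and a log2 difference of at least 1.5, 0 members were called at d2 (1.72%), in d3 G- (2.41%), in d4 G- (3.2%) and in d5 G- cells (4.31%), where 4, 2, 5 and 7 members had an unadjusted p under 0.05, against 22.8%, 27.7%, 27.8% and 30.6% of all genes. The rule called 2 members in d3 G+ (6.59%), 5 in d4 G+ (7.4%), 4 in d5 Glow (7.73%), 5 in d5 Ghigh (8.17%) and, at d6, 5 members in G+H- cells (10.2%) but 3 for G+H+ (11.1%). The members called by it were Cbx2 and Phc1 in each of these 6 populations, Cbx8 in all but d3 G+, Bmi1 in d4 G+, d5 Glow, d5 Ghigh and d6 G+H- cells, and Cbx6 in d4 G+, d5 Ghigh and d6 G+H- cells. The median log2 difference of the 9 genes from ESCs ran from -0.39 in d5 G- cells to 0.06 at d2, beside 0.00 to 0.03 over all genes. With slide as a fixed block the study's rule called 4 members in d3 G+ cells and 1 in d5 G- cells, and the wider rule 4 at d2 and 3 in d4 G- cells. The share of all genes called in that fit is not given. All populations share the same 3 ESC arrays.

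In d5 G- cells, the call of Cbx2 (1.49, adjusted p = 1.88e-06) held without each array in turn. The other calls there rested on single arrays, that of Rnf2 as given above. Bmi1 (0.66, adjusted p = 0.0236) was lost without ESC replicate 1 or 2 or d5 G- replicate 1 or 2 (adjusted p between 0.0677 and 0.199). Cbx6 (-0.68, adjusted p = 0.0161) was lost without ESC replicate 2 or d5 G- replicate 1 (adjusted p of 0.0674 and 0.121), and Phc1 (-1.18, adjusted p = 0.00738) without ESC replicate 3 or d5 G- replicate 1 (adjusted p of 0.112 and 0.122). Cbx8 was 1.73-fold higher than in ESCs by the measure given above, with 2 of 3 d5 G- arrays above background. By limma, on values not raised, its adjusted p was 0.0529. Cbx8 passed without ESC replicate 3 or d5 G- replicate 2 or 3 (adjusted p between 0.00265 and 0.0366). Cbx7 (-0.97, adjusted p = 0.102) passed without ESC replicate 2 (adjusted p = 0.0471). Without d5 G- replicate 1, 2 of 9 members passed. In d4 G- cells Phc1 (-0.92, adjusted p = 0.053) passed without ESC replicate 2 or d4 G- replicate 3 (adjusted p of 0.0133 and 0.0259).

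Some slides held ESCs beside a later population. On slide 3 the d6 G+H+ array differed from the ESC array by 1.61 for Cbx2, 1.36 for Bmi1, -1.18 for Cbx6 and -2.50 for Phc1. For d6 G+H- cells the differences on slides 1 and 5 were 1.73 and 1.48 for Cbx2, 1.87 and 1.57 for Bmi1, -1.49 and -1.93 for Cbx6, and -2.80 and -3.58 for Phc1.

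The comparison of G+ with G- cells of the same day addressed which subunits differ between cells sorted as high and low for the GSC reporter. Gsc itself was above background on all arrays of the G- populations, with means of 8.23 at d3, 9.30 at d4 and 9 at d5, and on 0 of 3 ESC arrays. At d3, 4 of 9 members passed at an adjusted p of at most 0.05, against 7.22% of all genes. Bmi1 was at 8.56, 8.03 and 7.96 in G- cells, all below the G+ values of 9.21, 9.55 and 9.28, and was higher in G+ cells by 1.16 (SE 0.20, adjusted p = 2.26e-04). Cbx6 was at 11.11, 11.44 and 11.40 in G- cells, all above the G+ arrays, and was lower in G+ cells by -0.90 (SE 0.20, adjusted p = 0.00358), although 1 of its other probes missed the threshold (-0.47, adjusted p = 0.151). Phc1, at 10.91, 11.26 and 11.89 in G- cells, was lower by -1.13 (SE 0.31, adjusted p = 0.0261), and Cbx2, at 10.73, 10.32 and 10.21 in G- cells, was higher by 0.76 (SE 0.21, adjusted p = 0.0267), again without overlap. The calls of Phc1 and Cbx2 were lost without d3 G- replicate 2 or 3 or d3 G+ replicate 1 or 2 (adjusted p between 0.0661 and 0.194). On slides 2 and 4, which held both populations, the difference was 1.52 and 1.31 for Bmi1, -1.18 and -1.20 for Cbx6, -1.11 and -1.44 for Phc1 and 0.90 and 0.86 for Cbx2.

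At d4, 3 members passed, against 8.64% of all genes. Bmi1 was higher in G+ cells by 1.08 (SE 0.20, adjusted p = 5.96e-04), with 8.67, 8.41 and 8.31 in G- and 9.71, 9.41 and 9.49 in G+ cells. Cbx6 was lower by -1.31 (SE 0.20, adjusted p = 3.65e-05), with 11.42, 11.31 and 11.05 in G- and 9.67, 10.41 and 9.77 in G+ cells, and the same other probe gave -0.45 (adjusted p = 0.178). Phc1 was lower by -1.32 (SE 0.31, adjusted p = 0.00639), with 10.81, 10.85 and 11.53 in G- and 9.35, 9.99 and 9.91 in G+ cells. The arrays of these 3 genes did not overlap. The call of Phc1 was lost without d4 G- replicate 3 (-1.08, adjusted p = 0.0715) or d4 G+ replicate 1 (-1.11, adjusted p = 0.0808), and Ring1 (0.54, adjusted p = 0.105) passed without d4 G+ replicate 3 (0.72, adjusted p = 0.036). With slide as a block, fixed or random, 6 members passed, with Cbx2 (0.58 and 0.55), Cbx8 (1.34 and 1.19) and Ring1 (0.61 and 0.58) higher in G+ cells. The 8.64% belongs to the fit without a block, and the share of all genes with a block is not given. On slides 1 and 3 the difference was 0.74 and 1.31 for Bmi1, -1.01 and -1.63 for Cbx6 and -0.82 and -1.51 for Phc1.

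Glow and Ghigh cells of d5, taken as their mean, were compared with G- cells, and 4 members passed, against 7.78% of all genes. Bmi1 was higher by 1.01 (SE 0.17, adjusted p = 2.20e-04), with G- values of 8.88, 8.78 and 7.96 below the 6 others, which ran from 9.33 to 9.87. Cbx8 was higher by 1.13 (SE 0.30, adjusted p = 0.0196), but G- replicate 1 at 6.84 lay among the other arrays. Phc1 was lower by -1.38 (SE 0.27, adjusted p = 9.58e-04), with G- values of 10.08, 10.75 and 11.59 and overlap with d5 Glow replicate 3 at 10.31. Cbx6 was lower by -0.76 (SE 0.17, adjusted p = 0.00475), with 10.66, 10.95 and 11.12 in G- cells, all above the 6 others. Its other probe that had missed the threshold at d3 and d4 gave -0.49 at d5 (adjusted p = 0.0556), with overlap. Cbx8 was lost without d5 G- replicate 2 (0.64, adjusted p = 0.477) or 3 (0.94, adjusted p = 0.167) or Glow replicate 1 (1.02, adjusted p = 0.0589), and Cbx6 without d5 G- replicate 3 (-0.65, adjusted p = 0.0692). Without d5 G- replicate 3, 2 of 9 members passed, and without d5 G- replicate 1 Cbx2 (0.68, adjusted p = 0.0267) and Ring1 (0.59, adjusted p = 0.0496) passed as well. On slide 1 the Ghigh array differed from the G- array by 0.85 for Bmi1, -0.20 for Cbx8, -0.54 for Cbx6 and -1 for Phc1. On slides 2 and 4 the Glow arrays differed from the G- array by 0.68 and 1.38 for Bmi1, 2.43 and 1.01 for Cbx8, -0.63 and -0.94 for Cbx6 and -1.40 and -1.28 for Phc1. Cbx8 thus had the opposite sign on slide 1, which held G- replicate 1. With only the compared groups in the fit, 0 members passed at d5 (Bmi1 adjusted p = 0.0504), and at d3 Bmi1 alone did. The shares of all genes given above belong to the fit of all arrays. That of the smaller fit is not given, so whether other genes lost calls alike is not shown.

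The markers moved with the sort. All 4 pluripotency markers had lower means in G+ than in G- cells at d3 and d4, and the difference passed at an adjusted p of at most 0.05 for 2 of them at d3 and 2 at d4 (Zfp42 and Esrrb on both days) and for 4 at d5. Their summed level was 14.44 to 14.97 in d3 G- and 13.28 to 14.09 in d3 G+ cells, 14.61 to 14.73 in d4 G- and 12.27 to 13.51 in d4 G+ cells, and 13.04 to 14.38 in d5 G- against 10.74 to 11.89 in d5 Ghigh cells. Of the 4 primitive streak markers, a list that holds Gsc, the gene of the sort, 3 passed as higher in G+ cells on each day. T had means of 12.94 in G- and 13.24 in G+ cells at d3. It went the other way at d4 (12.78 in G-, 11.60 in G+) and d5 (11.75 in G-, 10.26 in Glow, 9.30 in Ghigh). The part of the mixture of cells in the differences of the PRC1 genes was not tested. The difference between G+ and G- cells itself was compared between days. From d3 to d4 it moved by -0.08 for Bmi1 (SE 0.28), -0.41 for Cbx6 (SE 0.28), -0.19 for Phc1 (SE 0.44) and 0.25 for Cbx8 (SE 0.49), with adjusted p of 1 for all 9 members. From d3 to d5 the adjusted p of the 9 lay between 0.911 and 0.999.

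**Figure D3:**
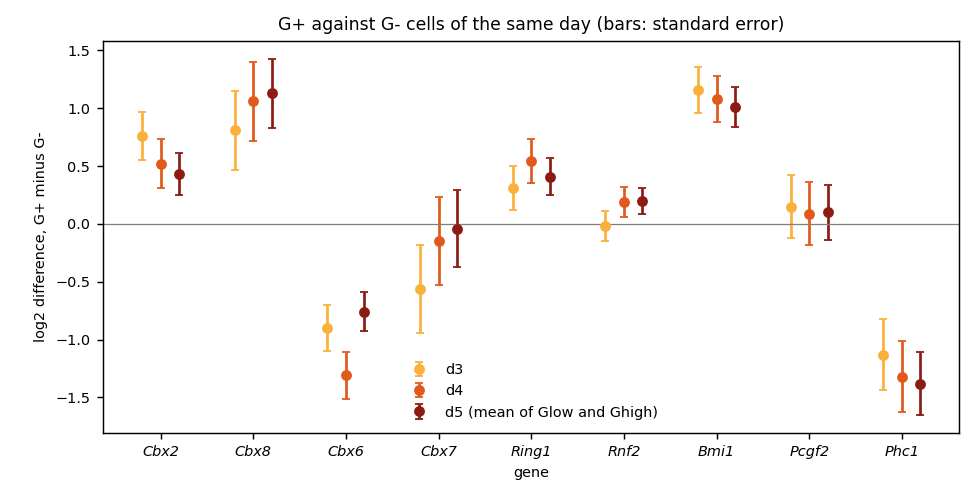
Log2 difference between G+ and G- cells of the same day for each PRC1 subunit gene, at d3, d4 and d5 (mean of Glow and Ghigh), from 3 arrays per population; bars are standard errors. Bmi1 lies between 1.01 and 1.16 on each day, Cbx6 between -1.31 and -0.76 and Phc1 between -1.38 and -1.13, whereas Pcgf2 and Rnf2 stay within 0.20 of 0.

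Along the GSC positive path, taken here from d2, members passed in the main fit only at the first of the steps tested. Cbx2 and Bmi1 had already differed between ESCs and d2, as given above. Later steps were tested 1 at a time. The mean of Phc1 fell further over them, from 10.23 in d3 G+ to 9.06 in d6 G+H+ cells, which was not tested as 1 comparison. From d2 to d3 G+ cells 4 members passed, against 21.6% of all genes. Phc1 was lower by -1.77 (SE 0.31, adjusted p = 5.56e-05) and Cbx6 by -1.23 (SE 0.20, adjusted p = 1.56e-05), whereas Cbx2 was higher by 0.87 (SE 0.21, adjusted p = 0.00264) and Bmi1 by 0.69 (SE 0.20, adjusted p = 0.0155). In all 4 genes the d2 and d3 G+ arrays were separate, and the call of Bmi1 was lost without d2 replicate 1 or d3 G+ replicate 2 (0.59 in both, adjusted p of 0.0966 and 0.0989). By limma 0 members passed from d3 G+ to d4 G+ (background 0.236%, 1 member with an unadjusted p under 0.05 against 8.32% of all genes), from d4 G+ to d5 Ghigh (6.66%, 0 members against 21.3%) and from d5 Ghigh to d6 G+H+ (21.2%, 1 member against 33.5%). Between d5 Ghigh and Glow cells (background 0.902%) and between d6 G+H+ and G+H- cells (0.00472%) 0 members passed, and 0 had an unadjusted p under 0.05, against 11.1% and 6.01% of all genes. Pcgf2 was the member of the last step, at 9.36, 9.31 and 8.63 in d5 Ghigh and 8.55, 8.79 and 7.90 in d6 G+H+ cells, which overlapped, with a difference of -0.68 (SE 0.27, adjusted p = 0.102). It passed without d5 Ghigh replicate 3 (-0.92, adjusted p = 0.0325), with slide as a fixed (-0.60, adjusted p = 0.00298) or random block (-0.64, adjusted p = 0.0245), and by its second probe (-0.85, adjusted p = 0.00167).

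Paralogous subunits were compared within arrays, since levels of different probes cannot be set against each other. For each of 5 pairs the log2 difference of the 2 probes was taken on each array, and the 6 arrays of ESCs and d2 were compared with the 6 arrays of d6 G+H- and G+H+ by an exact two-sided permutation test, whose smallest p is 0.00216, adjusted over the 5 pairs. Each end pools 2 populations as if they were 1. ESCs and d2 were not alike: for every pair but Cbx7 with Cbx6, each d2 array lay on the d6 side of all ESC arrays. Bmi1 relative to Pcgf2 was higher at d6 by 1.90 (SD 0.55 over the early and 0.39 over the late arrays, n = 6 each, adjusted exact p = 0.0054). Cbx7 relative to Cbx8 was lower by -2.27 (adjusted exact p = 0.0054), and relative to Cbx2 it was lower by -1.73 (adjusted exact p = 0.018). Ring1 relative to Rnf2 was higher by 0.51 (adjusted exact p = 0.0406). Its d2 values of -3.75, -3.79 and -3.83 lay within the range of the d6 arrays. Those of ESCs, at -4.26, -4.59 and -4.73, lay below it. Cbx7 relative to Cbx6 differed by 0.73 (adjusted exact p = 0.117). The early and late arrays were separate for Bmi1 with Pcgf2 and for Cbx7 with Cbx8 and overlapped for the other pairs. Cbx7 was above background on 1 of 3 arrays in either d6 population, and Cbx8 on 0 of 3 ESC arrays, so that the sizes of the changes that hold them are limited by background. The Ring1 and Rnf2 result was lost when any ESC array, d6 G+H- replicate 1 or 2, or d6 G+H+ replicate 1 or 2 was left out, with changes between 0.40 and 0.59.

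**Figure D4:**
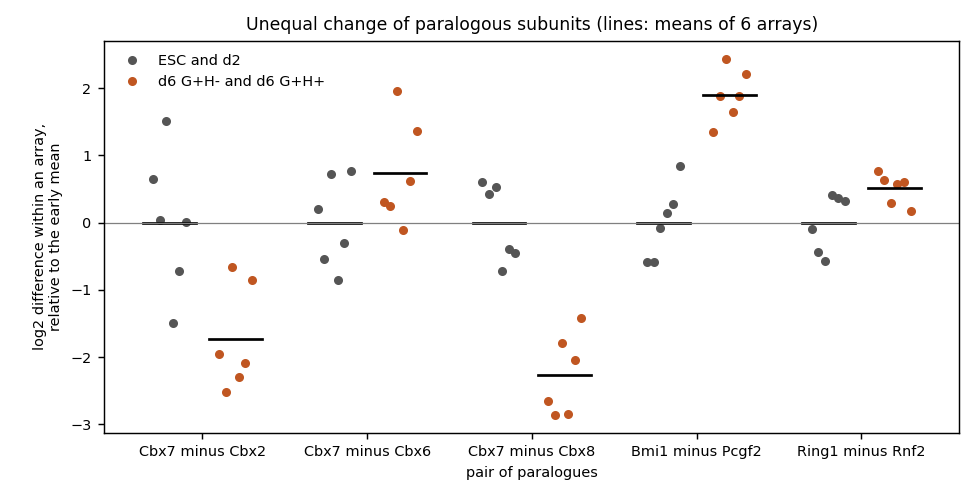
Log2 difference between 2 paralogous PRC1 genes within an array, set to 0 at the mean of the early arrays, for ESCs and d2 (6 arrays) and d6 G+H- and G+H+ cells (6 arrays); each point is an array and lines are means. Bmi1 minus Pcgf2 lies 1.90 higher at d6 and Cbx7 minus Cbx8 differs by -2.27, each with no overlap, and the other pairs overlap.

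Inhibition of EZH2 was examined in the d6 cultures. Of the 9 members, 1 passed limma's F test over the 3 regimens at an adjusted p of at most 0.01 (Bmi1, adjusted p = 1.65e-04), against 8.32% of all genes. Bmi1 was at 9.18, 9.57 and 9.32 in Control, 10.34, 10.53 and 10.29 in ADE_EPZ and 9.19, 9.27 and 9.08 in ES_EPZ cells. All ADE_EPZ arrays lay above the arrays of both other regimens, and ADE_EPZ had the highest mean of the 14 groups, 0.70 above the next. Bmi1 was higher in ADE_EPZ than in Control cells by 1.03 (SE 0.20, adjusted p = 5.68e-04) and than in ES_EPZ cells by 1.20 (SE 0.20, adjusted p = 0.0013). Its dimmer probe, at 8.07, 8.14 and 8.31 in Control, 9.03, 9.19 and 9.10 in ADE_EPZ and 7.96, 8.05 and 7.60 in ES_EPZ cells, gave differences of 0.93 (adjusted p = 0.00257) and 1.24 (adjusted p = 0.00152). On each of the 3 slides, with 1 array per regimen, ADE_EPZ exceeded Control by 0.73, 1.02 and 1.35 and ES_EPZ by 1.21, 1.14 and 1.26. ES_EPZ differed from Control by -0.17 (SE 0.20, adjusted p = 0.85).

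**Figure D5:**
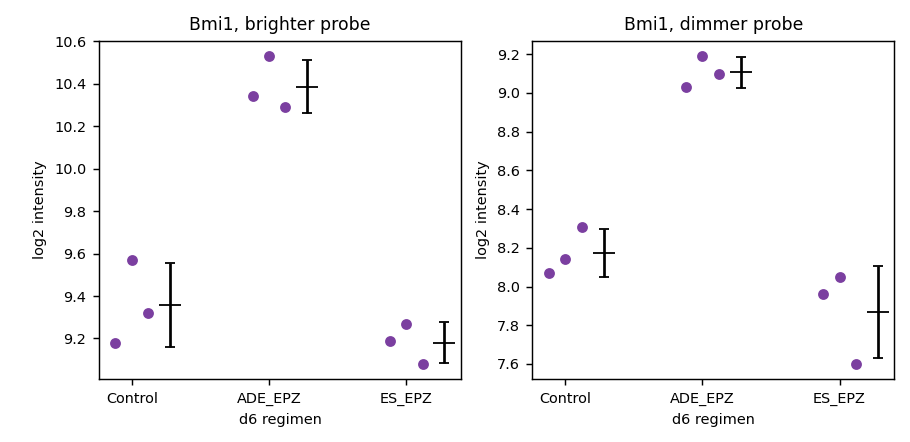
Log2 intensity of both Bmi1 probes on the arrays of the Control, ADE_EPZ and ES_EPZ regimens at d6; points are arrays, and the bar beside them is the mean with the SD of 3 arrays. By either probe the 3 ADE_EPZ arrays lie above all Control and ES_EPZ arrays, by 1.03 and 0.93 on average over Control.

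In all, 1 of 9 members passed at an adjusted p of at most 0.05 between ADE_EPZ and Control cells, against 18% of all genes, and 0 by the study's rule, against 2.76%, with 2 at an unadjusted p under 0.05, against 30.8%. Between ADE_EPZ and ES_EPZ cells 1 passed (background 1.13%). Between ES_EPZ and Control cells 0 passed by limma (background 3.26%), and 0 had an unadjusted p under 0.05, against 18.8%. Cbx6, at 10.21, 10.06 and 10.23 in Control and 10.68, 10.55 and 10.88 in ADE_EPZ cells, did not overlap and differed by 0.53 (SE 0.20, adjusted p = 0.0831). Pcgf2, at 8.55, 8.58 and 8.77 in Control and 8.09, 8.37 and 7.94 in ADE_EPZ cells, did not overlap and differed by -0.49 (SE 0.27, adjusted p = 0.332). With slide as a fixed block both passed (adjusted p of 0.0403 and 0.00772), and with slide as a random block Cbx6 did (adjusted p = 0.0359). The other probes of Cbx6 differed by 0.38 and -0.26 and the second of Pcgf2 by -0.53, with adjusted p between 0.0724 and 0.467. For the 6 other members the differences between ADE_EPZ and Control lay between -0.28 and 0.41. Markers moved with the regimen as well. All 4 pluripotency markers had higher means in ADE_EPZ than in Control cells, by 0.39 to 1.59, with 1 past an adjusted p of 0.05 (Zfp42, 1.51), and the summed level of the list was 10.06 to 10.49 in Control, 10.99 to 11.52 in ADE_EPZ and 10.21 to 11.22 in ES_EPZ cells. All 4 definitive endoderm markers were higher in ADE_EPZ on every array, by 0.75 to 2.42 on average, with 1 past the threshold (Hhex, 2.23). Of the 4 primitive streak markers, 2 passed as lower. T had means of 6.18 in Control and 5.73 in ADE_EPZ cells, whereas Gsc went the other way, from 11.98 to 12.97. The summed level of the endoderm list was 14.02 to 14.57 in Control, 15.57 to 16.04 in ADE_EPZ and 15.35 to 15.95 in ES_EPZ cells, and the part of these markers' cells in the difference of Bmi1 was not tested.

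Other PRC1 genes were taken from a list of 17, of which 16 had a probe. Between d6 G+H+ cells and ESCs 5 of 16 were higher and 4 lower at an adjusted p of at most 0.05, against 37.2% of all genes in either direction, with a median difference of -0.05. Yaf2, a subunit of variant PRC1, was higher by 1.84 (SE 0.21, adjusted p = 1.50e-08), and Bcorl1, a partner of PCGF1 complexes, by 2.37 (SE 0.19, adjusted p = 6.38e-12). E2f6, of PCGF6 complexes, was higher by 1.41, Phc2, a paralogue of Phc1, by 1.15 and Bcor by 0.71. L3mbtl2 was lower by -1.34, Kdm2b, which binds CpG-rich DNA, by -1.08, Pcgf6 by -0.76 and Pcgf1 by -0.53. Phc1 and Phc2 thus differed from ESCs in opposite directions. Between G+ and G- cells 1 of the 16 passed at d3 (Bcorl1, 0.71), 1 at d4 (Bcor, 0.73) and 0 at d5, against 7.22%, 8.64% and 7.78% of all genes. The counts at d3 and d4 were thus near the background. Between ADE_EPZ and Control cells 5 of 16 passed, against 18% of all genes. Scmh1 (0.90) and Pcgf3 (0.55) were higher, and Mga (-0.60), Pcgf6 (-0.57) and Pcgf1 (-0.49) lower. Between ES_EPZ and Control cells Pcgf1 was lower (-0.60, adjusted p = 0.0318).

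The genes whose 14 group means followed a member most closely were sought among 9490 genes whose means spanned at least 1. For Phc1 these were Nqo1 (Pearson's r 0.998), Clvs2 (0.992) and Bmerb1 (0.988), and for Pcgf2 Spc24 (0.985), Cep85 (0.980) and Bora (0.978). For Cbx6 they were Pla2g10 (0.976), Gca and Elavl3 (0.971 each), and for Cbx8 Zhx1 (0.976), Rad54l2 (0.966) and Fam126a (0.964). Bmi1 was followed by Rad54l2 (0.938), by Cbx8 itself (0.935) and by Micall2 (0.907), and Cbx2 by Tnrc6a (0.967), Mrpl41 (0.959) and Srsf9 (0.951). For Ring1 they were 2310068J16Rik and Nfil3 (0.931 each) and Macir (0.918), and for Cbx7, which was near background, Ocel1 (0.936), Tas1r1 (0.928) and Slc23a1 (0.894). The means of Rnf2 spanned less than 1, and no likeness was sought. These coefficients describe 14 means that share arrays and normalisation.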

How the data were processed

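RNA of 42 samples was measured on Agilent one-colour mouse arrays with Cy3. Per the labels and the study's methods, the authors hybridised labelled RNA, extracted spot intensities with Feature Extraction, corrected the background by normexp with an offset of 10 and normalised the arrays by quantiles in limma. The deposited values are log2 and were used as they stand, with spots of 1 probe averaged (55681 probes). The deposited scanner files hold intensity values before normalisation and gave the background calls, slides and alternatives. Values recomputed from them correlated with the deposited ones at 0.999979 or more.

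Probes were named by their accession through the RefSeq gene table, with 22201 of 22471 accessions matched. Differences between groups came from limma 3.58.1 in R 4.3.3, with 1 mean per group over all 42 arrays, moderated errors and Benjamini-Hochberg adjustment over all probes. For a probe not well above background on any array of a group, values below the lowest signal above background were raised to it. Fold changes taken from these values are not strict bounds. The fit was tested on simulated data. Genes named are the 9 members, the listed PRC1 genes past the threshold and the 3 genes closest to each member. 1 further gene of the list of PRC1 genes is not reported here. The members and lists were chosen with earlier results of these data known. Alternatives covered the normalisation, background correction, filter, probe, samples in the fit, slide or replicate number as a block, and each array left out. Same-numbered arrays of different groups tended to deviate together. Their median r was 0.21 (untreated) and 0.2 (EPZ6438), against -0.14 and -0.08 for other pairs. Of 33 untreated arrays 25, and of 9 EPZ6438 arrays 8, lay nearest to one of their own number. The labels do not say what the number stands for, and the main fit does not pair by it. Arrays that share a number may not be independent across groups. The study describes independent replicate experiments, and p-values measure the spread between these samples.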

Additional observations from a re-analysis of the deposited data

Results flagged for a closer look

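Bmi1 was flagged because the regimens with EPZ6438 differed in their effect. The effect of ADE_EPZ exceeded that of ES_EPZ, each against the same Control arrays, by 1.20 (limma adjusted p = 0.0013), with Bmi1 higher in 3 of 3 ADE_EPZ arrays than in any ES_EPZ array. The dimmer probe gave 1.24 (adjusted p = 0.00152). On the 3 slides the difference was 1.21, 1.14 and 1.26, and the call held without each array in turn.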

How the results depend on the processing

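No called result for a single gene turned its direction with another setting. Differences that missed the threshold did turn, among them that of Cbx6 between ADE_EPZ and Control, at 0.53 by its brightest probe and -0.26 by another (adjusted p of 0.0831 and 0.467). Counts of members against ESCs moved most in the G- populations and at d2. For the other settings the share of all genes called is not given. Whether the counts over all genes moved alike is therefore not shown. Past an adjusted p of 0.05, d2 gave 2 members, 4 with 75th percentile scaling, 4 with slide as a fixed block and 1 by the dimmer Bmi1 probe. d4 G- gave 1 member, 2 with an offset of 50, without background correction or with 75th percentile scaling, and 3 with a filter on dim probes, with slide as a fixed or random block or with the replicate number as a block. d5 G- gave 5 members and 1 with only the compared groups in the fit. By the study's rule, d3 G+ gave 2 members, 4 with 75th percentile scaling and 4 with slide as either block. d5 G- gave 0, 1 when recomputed from the scanner files, with quantiles within each series or with slide as either block, and 2 with 75th percentile scaling. d5 Glow gave 4 and d6 G+H- 5, against 2 each with an offset of 50, and d6 G+H- 2 without background correction. Between G+ and G- cells, d3 gave 4 members and 1 with only the compared groups, d5 gave 4 and 0, and d4 gave 3 and 6 with slide as either block. From d5 Ghigh to d6 G+H+ 0 members passed, and 1, Pcgf2, with slide as either block, by its second probe and by the mean over probes. Between ADE_EPZ and Control 1 member passed, 3 with slide as a fixed and 2 as a random block. With the replicate number as a block, which the labels do not make a pairing (25 of 33 untreated arrays lay nearest to one of their own number), the counts were 2 in d3 G-, 3 in d4 G-, 8 in d5 G-, 5 between G+ and G- at d4, 1 from d5 Ghigh to d6 G+H+ and 3 between ADE_EPZ and Control. The F test over untreated populations called 6 members, 5 with only untreated arrays in the fit (an alternative chosen after seeing the data), and 7 with slide or the replicate number as a block.

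With 75th percentile scaling, Cbx7 relative to Cbx6 turned to -0.44 (adjusted exact p = 0.569) from 0.73, and Ring1 relative to Rnf2 was 0.60 (adjusted exact p = 0.0703). This scaling moved the median of all probes by up to 0.18, and it and the recomputed values leave out the Cbx6 spot of d6 G+H+ replicate 2, which the scanner marked as an outlier. With ESCs alone against d6 G+H+ alone, where 3 against 3 arrays cannot go below an exact p of 0.1, the changes were -2.48 for Cbx7 with Cbx2, -2.61 for Cbx7 with Cbx8, 2.33 for Bmi1 with Pcgf2 and 0.82 for Ring1 with Rnf2.

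With 1 array left out at a time, the study's rule gave 0 to 1 members in d3 G-, 2 to 4 in d3 G+, 0 to 1 in d4 G-, 0 to 2 in d5 G- and 3 to 5 in d6 G+H-. The wider rule gave 1 to 2 at d2, 1 to 2 in d4 G-, 2 to 6 in d5 G-, 2 to 4 between G+ and G- at d3, 2 to 6 at d5, and 0 to 1 from d5 Ghigh to d6 G+H+. The F test gave 4 to 7, and Ring1 relative to Rnf2 ran from 0.40 to 0.59. Signal over background limits Cbx7 (17 of 42 arrays above it) and Cbx8 (33 of 42).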
